A study of Mus musculus with 8 samples.

Results

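The genes described here are 10 genes of prostaglandin and leukotriene metabolism, among the 57010 genes counted in cells of mouse kidney, sorted to enrich leukocytes, after ischemia-reperfusion injury (IRI). Endothelial and tubule cells were also among them. They were *Ptgs1*, *Ptgs2*, *Ptges*, *Ptger2*, *Ptger4*, *Alox5*, *Alox5ap*, *Alox15*, *Ltc4s* and *Hpgds*. They were selected on the *Ptgs2* level, which was lower with entospletinib in macrophages on each of 3 days, and so the comparison of entospletinib with vehicle in macrophages is given below as a description, with no test. Male C57BL/6 mice underwent unilateral renal IRI and received vehicle (DMSO) or entospletinib, an inhibitor of the kinase SYK, and kidneys were taken on day 1, 7 or 14, with untouched kidneys of untreated mice as control. That gave 7 conditions (control, vehicle on 3 days and entospletinib on 3 days), each 1 pool of cells from 3 mice. The kidneys were pooled before barcoding, so a difference between 2 single conditions has no replicate of mice behind it, and the 8 sublibraries into which all cells were divided measure technical error alone.

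Prostaglandins and leukotrienes are lipid mediators made from arachidonic acid that phospholipases free from membranes. The cyclooxygenases, encoded by *Ptgs1* and *Ptgs2*, convert it to prostaglandin H2, which *Ptges* turns into prostaglandin E2 and *Hpgds* into prostaglandin D2, and prostaglandin E2 acts through receptors that include those encoded by *Ptger2* and *Ptger4*. In the other branch the 5-lipoxygenase of *Alox5*, helped by the activating protein of *Alox5ap*, makes leukotriene A4, from which *Ltc4s* makes leukotriene C4, while *Alox15* encodes a 12/15-lipoxygenase. *Ptgs1* is known as the form present at rest and *Ptgs2* as the form induced in inflammation, and neutrophils and macrophages are classic sources of these lipids.

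All 10 genes were matched by identifier to the GENCODE M21 annotation on GRCm38, the assembly of the mm10 build that the submitters name. *Ptgs2* (ENSMUSG00000032487) lies on chromosome 1 from 150100031 to 150108227 on the plus strand and overlaps no other annotated gene. *Ptgs1* (ENSMUSG00000047250) lies on chromosome 2 from 36230426 to 36252272 on the plus strand, and *Alox5* (ENSMUSG00000025701) on chromosome 6 from 116410077 to 116461178 on the minus strand. Genes on the opposite strand share exon bases with *Ptgs1*, *Ptger2*, *Ptger4*, *Alox5ap* and *Ltc4s*, and whether counting used strand is not given in the sources used here, so reads of those 5 genes and their antisense partners may not be told apart.

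The sequences just upstream of *Ptgs2*, of its sister gene *Ptgs1* and of *Alox5* are shown because *Ptgs2* and *Alox5* had the largest differences between neutrophil-like and macrophage-like cells below and *Ptgs1* did not pass there. RefSeq entries were found for 8 of the 10 genes. Each sequence is the 250 bases before the RefSeq start in GRCm38.p6, 5′ to 3′ on the gene's own strand, at chr1:150099781-150100030 (plus strand), chr2:36230176-36230425 (plus strand) and chr6:116461179-116461428 (minus strand). Capitals mark matches, on either strand, to 6 motifs: the TATA box TATAAA, the E-box CACGTG, the CRE core TGACG, the GC box GGGCGG, the loose C/EBP pattern TTNNGNAA, where N is any base, and a loose NF-kB pattern of 3 G, any 5 bases and 2 C.
Ptgs2: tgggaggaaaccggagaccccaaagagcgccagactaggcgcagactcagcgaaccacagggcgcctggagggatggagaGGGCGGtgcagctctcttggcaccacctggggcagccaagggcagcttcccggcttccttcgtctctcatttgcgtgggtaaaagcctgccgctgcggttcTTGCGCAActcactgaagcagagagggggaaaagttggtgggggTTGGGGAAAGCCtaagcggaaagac
Ptgs1: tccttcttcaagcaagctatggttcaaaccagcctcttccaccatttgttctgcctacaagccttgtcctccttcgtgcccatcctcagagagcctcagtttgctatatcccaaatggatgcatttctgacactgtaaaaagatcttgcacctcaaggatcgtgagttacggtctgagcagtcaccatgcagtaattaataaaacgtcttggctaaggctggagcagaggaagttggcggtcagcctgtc
Alox5: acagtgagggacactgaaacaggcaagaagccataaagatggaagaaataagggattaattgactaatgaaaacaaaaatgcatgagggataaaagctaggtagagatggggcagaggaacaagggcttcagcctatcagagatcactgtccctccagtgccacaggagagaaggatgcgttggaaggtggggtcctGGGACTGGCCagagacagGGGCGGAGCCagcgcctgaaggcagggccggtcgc

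The *Ptgs2* window held 1 GC box, 2 matches to the C/EBP pattern and 1 to the NF-kB pattern, the last of which overlapped a C/EBP match. The *Alox5* window held 1 GC box and 2 NF-kB matches, 1 of which overlapped the GC box, and the *Ptgs1* window held none of the 6 motifs. Over all 32851 upstream windows of this length, the GC box was found in 32.7%, the C/EBP pattern in 36.8% and the NF-kB pattern in 45.8%, against 12.4% for the TATA box, 6.02% for the E-box and 17.8% for the CRE core. The matches are common letters and describe the windows only.

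Of 120281 barcodes, 79389 cells passed the limits of the study on genes, counts and mitochondrial and ribosomal counts. The study shows more cells than this in its own map, so its set of cells was not reproduced. The cells that passed held 238942003 counts in all, with a median of 960 to 2930 counts per cell by condition. The shallowest condition was entospletinib on day 14. Cells were placed in a class by counts of marker genes, which left out the 10 genes described here, and 55124 cells (69.4%) were placed, while 6895 had too few markers and 17370 had markers of more than 1 class. In the 15 classes described here, no marker of another class was among the 10 leading genes. Class names carry the ending -like because they rest on these markers alone. Of 105340 combinations of well barcodes, 13712 occurred in more than 1 sublibrary. Levels are given as CPM, the count of a gene divided by all counts of that class in 1 condition and scaled to a fixed total, with exact Poisson 95% intervals that cover counting error only. They are compared for 1 gene across cells, not between genes, because counts in this assay depend on transcript length. With whole cells of a class summed, a change in the mix of cells inside a class and a change of RNA per cell cannot be told apart.

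*Ptgs2* was at its highest in neutrophil-like cells, which held 52.1% of its 79392 counts in passing cells (exact binomial 95% interval 51.7 to 52.4%), although they were 12995 of the cells. That share was pooled over conditions, and vehicle on day 1 gave 26278 of the 41330 counts in neutrophil-like cells. Macrophage-like cells held more *Ptgs2* counts than neutrophil-like cells in control (281 and 144) and with entospletinib on day 14 (205 and 53). In the other conditions neutrophil-like cells held more. In neutrophil-like cells the *Ptgs2* level was 1741 CPM in control (interval 1469 to 2050), 1932.5 CPM with vehicle on day 1, 2718 CPM on day 7 and 3727 CPM on day 14. With entospletinib it was 993 CPM on day 1, 1953 CPM on day 7 and 2108.5 CPM on day 14. The lowest of these 7 levels was above the highest *Ptgs2* level of every other class, and the neutrophil-like control and entospletinib day 14 pools held just 63 and 39 cells.

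In macrophage-like cells the *Ptgs2* level was 25.5 CPM in control (22.6 to 28.7), and with vehicle 183 CPM on day 1 (175.5 to 192), 130.1 CPM on day 7 (123 to 138) and 126 CPM on day 14 (121 to 131). With entospletinib it was 71.9 CPM on day 1 (65.2 to 79.1), 37.4 CPM on day 7 (33.0 to 42.1) and 59.3 CPM on day 14 (51.5 to 68.0). All 3 vehicle pools were thus above all 3 entospletinib pools, and all 6 injured pools above the control.

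Monocyte-like cells had *Ptgs2* levels of 227 CPM in control, 469 CPM, 309 CPM and 103 CPM on days 1, 7 and 14 after vehicle, and 212 CPM, 158 CPM and 286 CPM on the same days after entospletinib. In cDC2-like cells, the class of dendritic cells that mainly prime CD4+ T cells, the *Ptgs2* level was 157 CPM in control, 390 CPM, 210 CPM and 370 CPM after vehicle, and 130.1 CPM, 278 CPM and 272 CPM after entospletinib. Vehicle and entospletinib pools overlapped in both classes. Dendritic cells marked by *Ccr7* had a median *Ptgs2* level of 186 CPM over 6 conditions, and the *Ptgs2* ranges of cDC2-like, monocyte-like and *Ccr7* dendritic cell-like cells overlapped, so these 3 neighbours in the order were not apart.

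**Figure D1:**
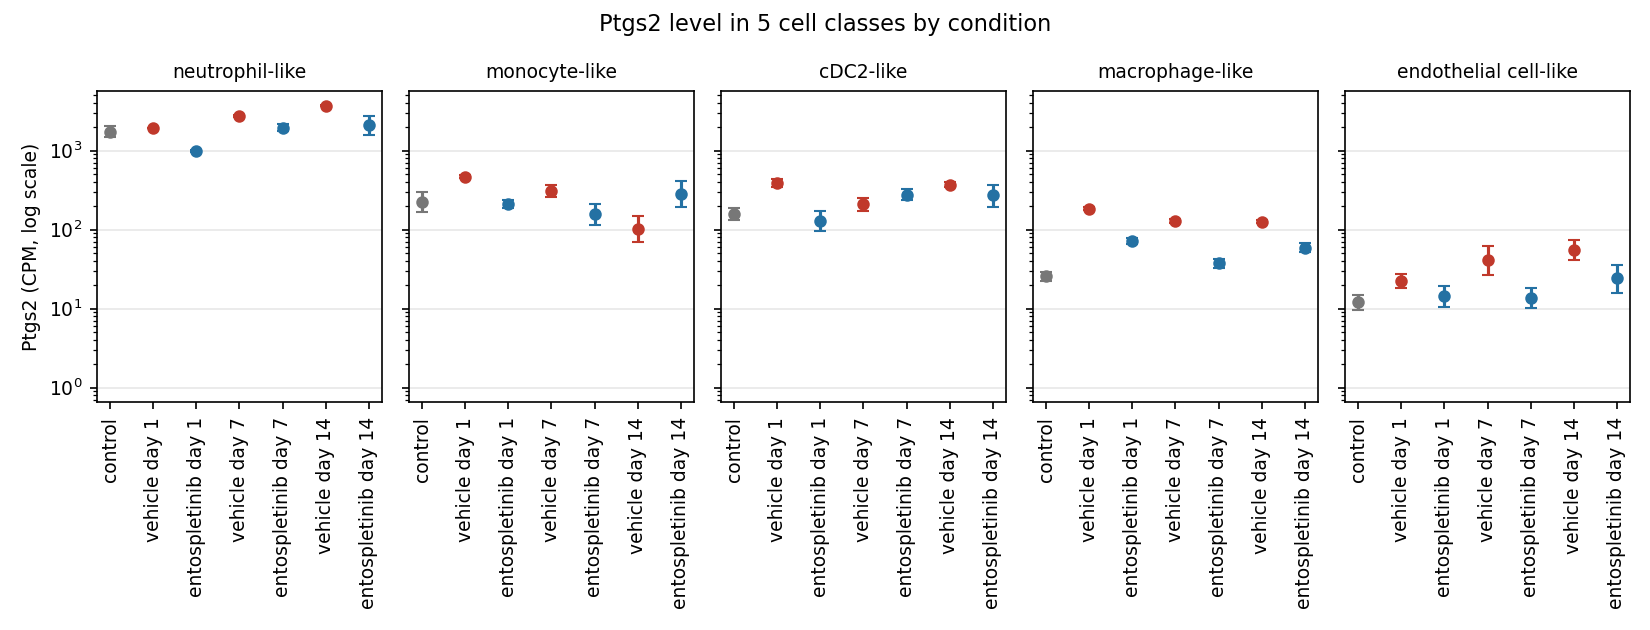
Level of Ptgs2 (CPM, logarithmic axis) in 5 cell classes for each of the 7 conditions, grey for control, red for vehicle and blue for entospletinib, with exact Poisson 95% intervals over counts. Neutrophil-like cells lie between 993 and 3727 CPM, and in macrophage-like cells the 3 vehicle pools lie above the 3 entospletinib pools.

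To set a background for *Ptgs2*, each cell was thinned to 500 counts and the share of cells with a *Ptgs2* count was read. That share was 50.7% in neutrophil-like cells (interval 49.9 to 51.6%; 71.7% before thinning), 12.6% in monocyte-like cells (35.7% before thinning), 10.5% in cDC2-like cells (31.7% before) and 3.37% in macrophage-like cells (11.5% before). T cell-like and B cell-like cells, which should hold little *Ptgs2*, had shares of 0.912% (interval 0.522 to 1.48%) and 1.21% (0.801 to 1.76%), and 3.74% and 3.31% before thinning. The median depth before thinning was 1382 counts per cell in neutrophil-like, 2595 in macrophage-like, 2063 in T cell-like and 1510 in B cell-like cells. The *Ptgs2* share in endothelial cell-like cells, 0.943% (0.733 to 1.19%; 4.34% before thinning), lay within the lymphocyte range when all conditions were pooled. By condition, the thinned *Ptgs2* share in endothelial cell-like cells was 0.613% in control, 1.82%, 2.58% and 1.87% on days 1, 7 and 14 after vehicle, and 0.645%, 0.521% and 0.962% after entospletinib. The vehicle pools of days 7 and 14 held 194 and 323 of these cells, with intervals of 0.842 to 5.91% and 0.689 to 4.02%. The highest *Ptgs2* level of endothelial cell-like cells, 55.2 CPM (40.8 to 73.0), was above the highest of T cell-like (35.3 CPM) and B cell-like cells (43.7 CPM), with overlapping intervals (18.2 to 61.7 CPM and 22.6 to 76.4 CPM). In macrophage-like cells the thinned *Ptgs2* share was 1.16% in control (0.824 to 1.59%), 6.20% with vehicle on day 1, 4.07% on day 7 and 4.45% on day 14, and 2.79%, 1.66% and 2.13% with entospletinib. In control the *Ptgs2* share was 0.254% in T cell-like (0.00643 to 1.41%) and 0.570% in B cell-like cells (0.0691 to 2.04%), and these intervals overlapped that of macrophage-like cells. The interval on day 7 with entospletinib (1.17 to 2.28%) overlapped that of B cell-like cells over all conditions. Beyond control, the lymphocyte shares were not matched by condition. The highest *Ptgs2* level of T cell-like cells was with vehicle on day 1, against 0 CPM with entospletinib on day 1, from 38 cells. That of B cell-like cells was with vehicle on day 7, against a lowest of 18.6 CPM in control. Before thinning the *Ptgs2* shares in macrophage-like cells were 4.77% in control, 18.7%, 18.5% and 16.1% after vehicle and 8.81%, 6.27% and 4.17% after entospletinib. Their median depth was 2788 counts in control, 4056.5, 3847 and 2667 after vehicle and 2324, 2755 and 949 after entospletinib. The shares before thinning thus also carry a lower depth with entospletinib on each day. Thinning left out 95 neutrophil-like, 254 macrophage-like, 12 T cell-like, 99 B cell-like and 45 endothelial cell-like cells with fewer than 500 counts, 234 of the macrophage-like cells being from the entospletinib day 14 pool.

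Ratios between conditions in macrophage-like cells are given as log2 ratios minus that of the median gene, over the 3392 genes that averaged 50 CPM or more, because the median gene itself moved by −0.12, 0.35 and 0.07 on days 1, 7 and 14 between entospletinib and vehicle and by 0.13, −0.31 and −0.08 between vehicle and control. Relative to the median gene, *Ptgs2* in macrophage-like cells was at −1.24 ± 0.48 (SD over 8 sublibraries) with entospletinib against vehicle on day 1, −2.15 ± 0.63 on day 7 and −1.15 ± 0.45 on day 14, and every sublibrary had this direction on all 3 days. These are the values that chose the genes. Among the 3392 genes, 0.619% were at least 2-fold lower than the median gene on day 1, 2.54% on day 7 and 1.24% on day 14, and 0.442%, 0.265% and 0.767% at least 2-fold higher. Of the 10 genes, *Ptgs1*, *Ptgs2*, *Ptger4*, *Alox5ap* and *Hpgds* were among the 3392.

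Without macrophage-like cells that held any count of a neutrophil marker, the *Ptgs2* ratio on day 1 was −0.59, against −2.09 on day 7 and −0.93 on day 14. The summed level of the 13 neutrophil markers in macrophage-like cells was 185 CPM in control, 362 CPM, 249 CPM and 356 CPM on days 1, 7 and 14 after vehicle, and 330 CPM, 188 CPM and 223 CPM after entospletinib, with 12 or 13 of 13 markers detected. The summed level of the 12 monocyte markers, all of them detected in every condition, was 249 CPM in control, 1454 CPM, 1346 CPM and 862 CPM after vehicle and 464 CPM, 671 CPM and 402 CPM after entospletinib. Both marker sums were thus lower with entospletinib on each day, as *Ptgs2* was. The summed level of the 10 cDC2 markers was 912 CPM, 895 CPM and 1031 CPM after vehicle and 883 CPM, 1044 CPM and 827 CPM after entospletinib, so it was higher on day 7. The part of these markers in the *Ptgs2* difference was not tested beyond leaving out cells with a neutrophil marker.

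The other genes at 50 CPM or more in macrophage-like cells were not at least 2-fold lower with entospletinib on more than 1 day. *Ptger4*, the EP4 receptor gene, was at 76.7 CPM with vehicle and 73.3 CPM with entospletinib on day 1, 56.2 and 62.3 CPM on day 7, and 87.2 and 39.4 CPM on day 14, with a relative ratio of −1.21 ± 0.44 on day 14 that was lower in 8 of 8 sublibraries. The *Ptger4* ratios on days 1 and 7 were 0.05 ± 0.25 and −0.21 ± 0.35. On day 14 the summed cDC2 markers were at 1031 CPM with vehicle and 827 CPM with entospletinib, and the monocyte markers at 862 and 402 CPM. Their part in the *Ptger4* difference was not tested. Each day compares 1 pool with 1 pool, and these SDs cover technical error alone. *Hpgds*, the prostaglandin D2 synthase gene, was at 156 and 130.03 CPM on day 1, 173 and 232 CPM on day 7, and 229 and 201 CPM on day 14 for vehicle and entospletinib, with a relative ratio of −0.26 ± 0.07 on day 14 in 8 of 8 sublibraries, after −0.14 ± 0.17 and 0.08 ± 0.22 on days 1 and 7. *Ptgs1* was between 56.3 and 81.6 CPM over all 7 conditions, with relative ratios of 0.20 ± 0.34, −0.35 ± 0.25 (lower in 7 of 8 sublibraries) and −0.06 ± 0.52 on days 1, 7 and 14. The *Ptgs1* levels on day 7 were 75.2 CPM with vehicle and 75.6 CPM with entospletinib, so that relative ratio reflects the move of the median gene by 0.35. *Alox5ap* was at 146, 64.2 and 60.7 CPM with vehicle against 142, 82.1 and 83.9 CPM with entospletinib, with relative ratios of 0.07 ± 0.22, 0.0011 ± 0.25 and 0.40 ± 0.28. *Alox5*, below 50 CPM, was at 7.91, 8.80 and 11.2 CPM after vehicle and 9.01, 20.4 and 12.4 CPM after entospletinib, and its relative ratio of 0.86 ± 0.73 on day 7 was higher in 7 of 8 sublibraries. *Ptges* was at 4.23, 4.23 and 2.30 CPM after vehicle and 2.55, 1.95 and 3.18 CPM after entospletinib. Its relative ratios were −0.58 ± 1.43, −1.44 ± 0.89 (lower in 8 of 8 sublibraries) and 0.45 ± 0.76. The exact interval of the *Ptges* ratio on day 14, from its counts, was −0.68 to 1.36. *Ptger2* was at 3.59, 1.64 and 2.66 CPM after vehicle and 1.70, 0.973 and 4.05 CPM after entospletinib, with relative ratios of −0.91 ± 1.14, −1.06 ± 1.99 and 0.58 ± 1.09. *Ltc4s* was at 1.75, 1.64 and 1.13 CPM after vehicle and 2.21, 2.36 and 2.31 CPM after entospletinib, with relative ratios of 0.47 ± 1.36, 0.16 ± 2.21 and 1.03 ± 1.38. These 3 genes rest on 7 to 59 counts a pool, and their ratios were of mixed direction over the days for *Ptges* and *Ptger2*. On day 14 *Alox15*, with 0 counts in both pools, had a relative ratio of 2.62 from the 0.5 counts added to each sum. That addition thus raises day 14 ratios of genes with few counts, and nothing is read from their direction over sublibraries.

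**Figure D2:**
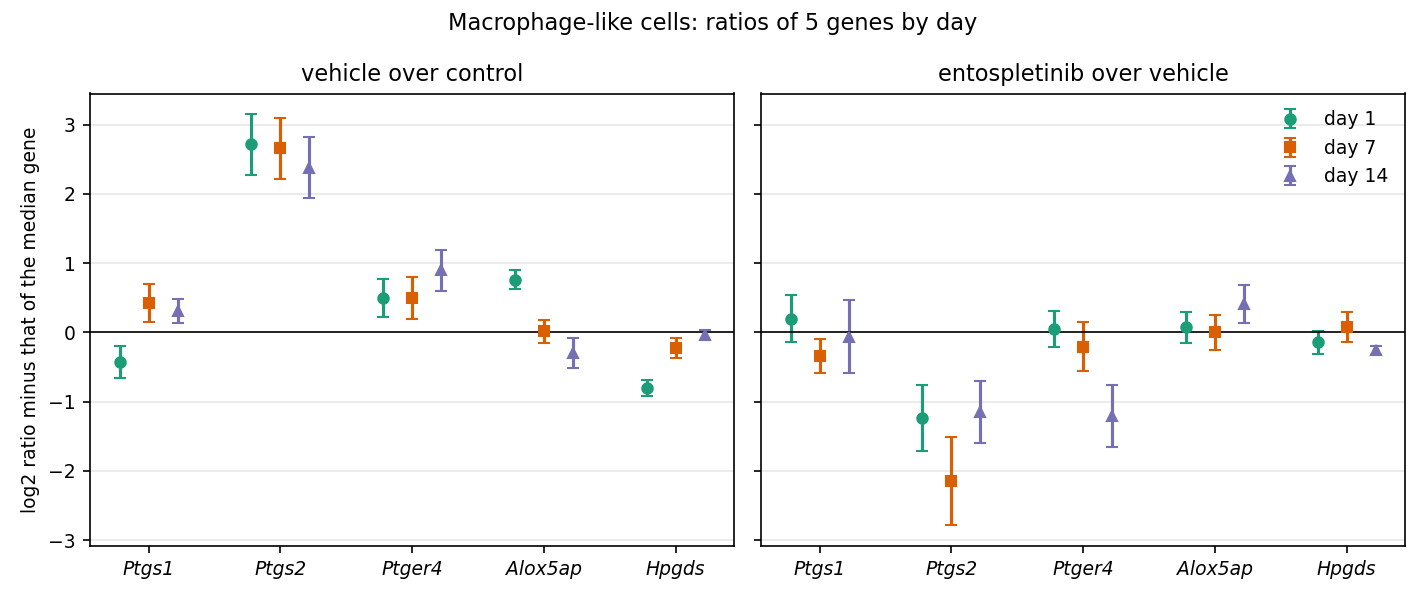
Log2 ratios in macrophage-like cells minus that of the median gene, for the 5 members that averaged 50 CPM or more, vehicle over control (left) and entospletinib over vehicle (right), by day, with bars of 1 SD over 8 sublibraries. Ptgs2 lies between 2.38 and 2.71 on the left and between −2.15 and −1.15 on the right, and Ptger4 is low on the right on day 14.

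Against the control pool, *Ptgs2* in vehicle-treated macrophage-like cells stood at a relative log2 ratio of 2.71 ± 0.44 on day 1, 2.66 ± 0.44 on day 7 and 2.38 ± 0.44 on day 14, in 8 of 8 sublibraries each. The share of genes at least 2-fold higher than the median gene was 6.75%, 4.25% and 3.24% on those days, and the share at least 2-fold lower 6.37%, 1.74% and 1.62%. The vehicle levels of *Ptgs2* in these ratios are those that chose the genes, so a high vehicle level is favoured by the choice and nothing is read from *Ptgs2* against these shares. *Ptger4* had ratios of 0.50, 0.49 and 0.89, *Alox5ap* 0.76, 0.01 and −0.30, *Hpgds* −0.81, −0.22 and −0.04, and *Ptgs1* −0.43, 0.42 and 0.31 on days 1, 7 and 14. All 3 ratios share 1 control pool, whose macrophage-like *Ptgs2* share had an interval that overlapped those of lymphocytes, so they rest on that pool and have no test. In the same pools the summed monocyte markers were 249 CPM in control and 1454, 1346 and 862 CPM after vehicle. The summed neutrophil markers were 185 CPM and 362, 249 and 356 CPM, and the summed cDC2 markers 777 CPM and 912, 895 and 1031 CPM. All of these sums were higher after vehicle, as *Ptgs2* was. Without cells with a neutrophil marker the *Ptgs2* ratios to control were 2.53, 2.84 and 2.44. The part of the monocyte and cDC2 markers was not tested.

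In other classes, entospletinib was compared with vehicle by edgeR's quasi-likelihood test with the day as a block. Each test had 3 pairs of pools, 2 residual degrees of freedom and Benjamini-Hochberg adjustment over all genes. Its estimate of spread is shared over genes, so the p-values rest on more than those 2 degrees of freedom. Of the 10 genes, 8 had enough counts to be tested in neutrophil-like, 3 in monocyte-like, 4 in cDC2-like and 4 in endothelial cell-like cells, and none of those tested passed. Where the low-count filter was dropped or day 7 left out, *Ptgs2* passed in neutrophil-like cells (−0.84 and −0.98). In neutrophil-like cells, where 0.904% of 7857 genes were called, *Ptgs2* had a log2 fold change of −0.82 ± 0.29 (SE; adjusted p = 0.21 by edgeR) and was lower in 3 of 3 pairs. *Ptgs1* in neutrophil-like cells was at 41.0, 122 and 66.3 CPM after vehicle and at 22.6 and 44.4 CPM after entospletinib on days 1 and 7, with 0 counts on day 14 (which allows up to 119 CPM), and a log2 fold change of −1.15 ± 0.42 (adjusted p = 0.24 by edgeR). *Alox5ap* in neutrophil-like cells was at 330.05, 90.2 and 74.3 CPM after vehicle and 422, 168 and 239 CPM after entospletinib, with a log2 fold change of 0.75 ± 0.33 (adjusted p = 0.52 by edgeR). In the same pools the summed neutrophil markers were 28456, 13199 and 17144 CPM after vehicle and 35908, 21156 and 24666 CPM after entospletinib. The summed monocyte markers were 1130, 604 and 558 CPM after vehicle and 1248, 804 and 756 CPM after entospletinib. The part of these markers was not tested. At an unadjusted p under 0.05, 3 of the 8 members tested in neutrophil-like cells passed, beside 531 of all 7857 genes, and DESeq2 called none of the members.

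For monocyte-like cells 0% of 4808 genes were called by edgeR, 261 had an unadjusted p under 0.05, and DESeq2 also called 0. *Ptgs2* there had a log2 fold change of −0.51 ± 0.40 (adjusted p = 0.87 by edgeR), lower on days 1 and 7 and higher on day 14. It ranged from −1.13 without day 14 to −0.08 without day 1 and was −1.20 with cells placed by likelihood. In cDC2-like cells, where 0.0166% of 6023 genes were called, *Ptgs2* had −0.58 ± 0.25 (adjusted p = 0.62 by edgeR), lower on days 1 and 14 and higher on day 7. That *Ptgs2* value ranged from −1.02 without day 7 to −0.15 without day 1. In endothelial cell-like cells, where 0.195% of 10766 genes were called, *Ptgs2* had −1.11 ± 0.26 (adjusted p = 0.114 by edgeR). Its levels there, 13.7 to 55.2 CPM, are near those of lymphocytes. The highest, with vehicle on day 14, had 1 of 8 sublibraries at 185 CPM and the others at up to 58.3 CPM. *Ptgs2* was lower in 3 of 3 pairs and passed there with library size alone (−1.09), with no low-count filter (−1.10) or without day 1 (−1.47). Whether the *Ptgs2* difference was of another size in these classes than in macrophage-like cells was not tested.

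The cell classes were compared over all 7 pools with the pool as a block again by edgeR with adjustment over all genes. Here too the spread is shared over genes, so the p-values rest on more than the 6 residual degrees of freedom of the pools. The contrast is another one than that which chose the members, but the macrophage-like sums include the 6 pools whose *Ptgs2* counts were used for the choice, so the *Ptgs2* results against macrophage-like cells are not independent of it. In the control pool, which the choice did not use, the *Ptgs2* level was 1741 CPM in neutrophil-like, 227 CPM in monocyte-like, 157 CPM in cDC2-like, 25.5 CPM in macrophage-like and 11.98 CPM in endothelial cell-like cells. For neutrophil-like against macrophage-like cells, 24.8% of 11370 genes were higher and 35.7% lower, and of 8 members tested 5 were higher and 2 lower. Scaling by library size alone gave 1801 genes higher and 5983 lower in place of 2815 and 4054, and DESeq2 gave 1708 and 6002. *Ptgs2* was higher by 5.09 ± 0.28 on the log2 scale (adjusted p = 1.9e-25 by edgeR) and *Alox5* by 4.69 ± 0.32 (adjusted p = 7.6e-21). *Ptger2*, the EP2 receptor gene, was higher by 3.14 ± 0.35, *Ptges* by 2.11 ± 0.33 and *Alox5ap* by 1.36 ± 0.27. *Ptger4* was lower, at −2.59 ± 0.32, as was *Hpgds* at −4.54 ± 0.35 (adjusted p = 2.0e-18 by edgeR), while *Ptgs1* had −0.13 ± 0.30 and did not pass (adjusted p = 0.72 by edgeR), although DESeq2 called it lower at −0.75.

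For monocyte-like against macrophage-like cells, 13.6% of 11321 genes were higher and 28.9% lower, and of 8 members tested 4 were higher and 3 lower. *Ptgs2* was higher by 1.65 ± 0.23 on the log2 scale (adjusted p = 5.1e-06 by edgeR), *Ptger2* by 2.63 ± 0.33, *Ptges* by 2.01 ± 0.32 and *Alox5ap* by 1.03 ± 0.13. *Alox5* had 0.14 ± 0.33 and did not pass (adjusted p = 0.77 by edgeR). *Hpgds* was lower, at −5.70 ± 0.21, and so was *Ptgs1*, at −3.27 ± 0.27. *Ptger4* was called lower at −0.56 ± 0.21 (adjusted p = 0.036 by edgeR), a call that was lost under DESeq2, the stricter gate, no ribosomal limit, over 500 genes per cell, likelihood placing, and without the vehicle pool of day 1, 7 or 14 or the entospletinib pool of day 1.

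For neutrophil-like against monocyte-like cells, 30.3% of 4401 genes were higher and 31.3% lower. DESeq2 gave 1088 genes higher and 1749 lower in place of 1334 and 1378. Of 4 members tested, *Ptgs2* was higher by 3.25 ± 0.26 on the log2 scale (adjusted p = 6.6e-09 by edgeR), *Alox5* higher by 4.76 ± 0.29 (adjusted p = 1.7e-10) and *Ptger4* lower, at −2.04 ± 0.28, though *Ptger4* was too low to test under the stricter gate or without vehicle day 1, vehicle day 7 or entospletinib day 1. *Alox5ap* had 0.23 ± 0.22 and did not pass (adjusted p = 0.37 by edgeR).

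For cDC2-like against macrophage-like cells, 17.5% of 10484 genes were higher and 19.2% lower. Scaling by library size alone gave 1434 genes higher and 2877 lower in place of 1836 and 2017. Of 6 members tested, *Ptgs2* was higher by 1.82 ± 0.23 on the log2 scale, *Ptger4* by 1.58 ± 0.12 and *Alox5ap* by 0.62 ± 0.13. *Ptgs1* was lower, at −4.95 ± 0.32, and *Hpgds* was lower, at −2.72 ± 0.24, and *Alox5* had −0.31 ± 0.31 and did not pass (adjusted p = 0.48 by edgeR). For endothelial cell-like against macrophage-like cells, 31.3% of 12648 genes were higher and 34% lower, and *Ptgs1* was higher by 0.72 ± 0.14 (adjusted p = 0.00044 by edgeR) while the other 5 members tested were lower, from −1.90 for *Ptgs2* to −6.07 for *Hpgds*.

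**Figure D3:**
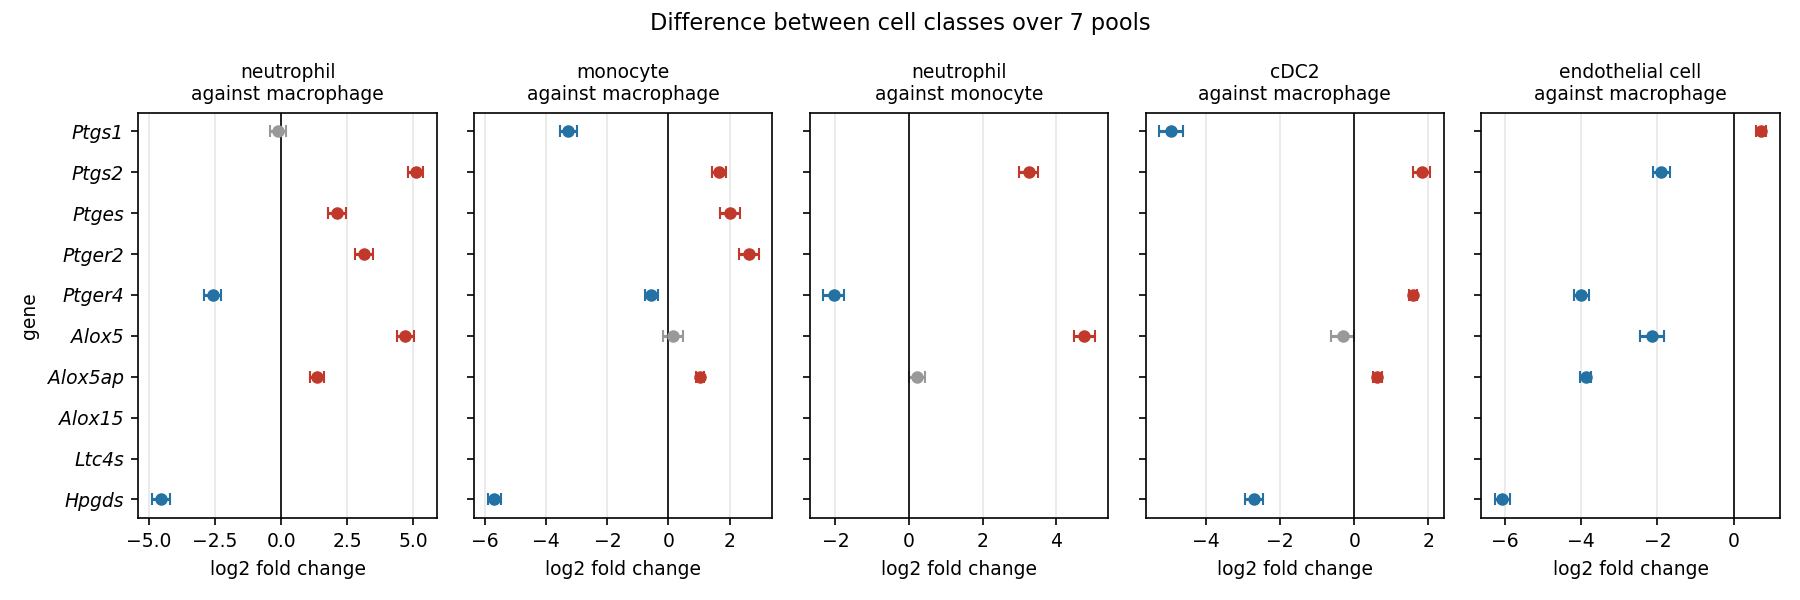
Log2 fold change with its standard error for each gene tested in 5 comparisons of cell classes over 7 pools, red for called higher, blue for called lower and grey for not called at an adjusted p of 0.05. Ptgs2 and Alox5 are high in neutrophil-like cells, Hpgds is low in every class set against macrophage-like cells, and genes with no point were too low to test.

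The levels of the members over the 15 classes are described next, with no test between members. Of the enzymes, *Ptgs1* had a median over conditions of 125 CPM in endothelial cell-like cells (range 93.6 to 153), 81.4 CPM in cells of the distal tubule or collecting duct and 75.2 CPM in macrophage-like cells, and these ranges overlapped. *Ptges*, the prostaglandin E synthase gene, was highest in distal tubule or collecting duct cells, with a median of 59.7 CPM (43.4 to 65.8) over 5 conditions and 197 cells, above the highest *Ptges* level of monocyte-like cells, 29.5 CPM. Stroma-like cells had the next highest median, from 2 conditions of 20 and 30 cells, with a *Ptges* level of 51.3 CPM (16.7 to 119.8) with vehicle on day 1, inside the range of the distal tubule or collecting duct cells, and 0 counts on day 14. *Hpgds* had a median of 201 CPM in macrophage-like cells (130.03 to 249), which held 78.6% of its 17975 counts, and no *Hpgds* level of cDC2-like cells, at 10.1 to 48.3 CPM, reached that range.

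Of the receptor genes, *Ptger4* had medians of 178 CPM in *Ccr7* dendritic cell-like and 172 CPM in cDC2-like cells, with overlapping ranges, and cDC2-like cells (129 to 213 CPM) lay above T cell-like cells (11.4 to 86.1 CPM) in all 7 conditions. *Ptger2* was low, with medians of 19.8 CPM in cDC1-like, the dendritic cells that mainly prime CD8+ T cells, 12.1 CPM in neutrophil-like, 10.6 CPM in monocyte-like and 8.61 CPM in T cell-like cells. The *Ptger2* median was 1.70 CPM in macrophage-like and 1.24 CPM in cDC2-like cells.

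Of the leukotriene genes, *Alox5* had its highest median in neutrophil-like cells, at 242 CPM in control, 301 CPM, 160 CPM and 228 CPM after vehicle and 207 CPM, 178 CPM and 119 CPM after entospletinib. With conditions pooled these cells held 67.4% of its 8011 counts, and vehicle on day 1 gave 4093 of their 5398. Macrophage-like cells held more *Alox5* counts than neutrophil-like cells in control (98 and 20) and with entospletinib on days 7 (147 and 36) and 14 (43 and 3). In the other conditions neutrophil-like cells held more. The next *Alox5* median, 11.5 CPM in monocyte-like cells, was lower, and the 2 ranges were apart. *Alox5ap* was spread more widely, with medians of 197 CPM in monocyte-like, 168 CPM in neutrophil-like, 139.9 CPM in cDC2-like, 134 CPM in cDC1-like, 87.0 CPM in plasmacytoid dendritic cell-like and 82.1 CPM in macrophage-like cells, with ranges that overlapped. *Ltc4s* had just 423 counts in all passing cells, its highest median being 5.75 CPM in distal tubule or collecting duct cells, and *Alox15* had 12 counts, 3 of them in the macrophage-like and neutrophil-like classes, so that nothing could be compared for it at this depth.

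**Figure D4:**
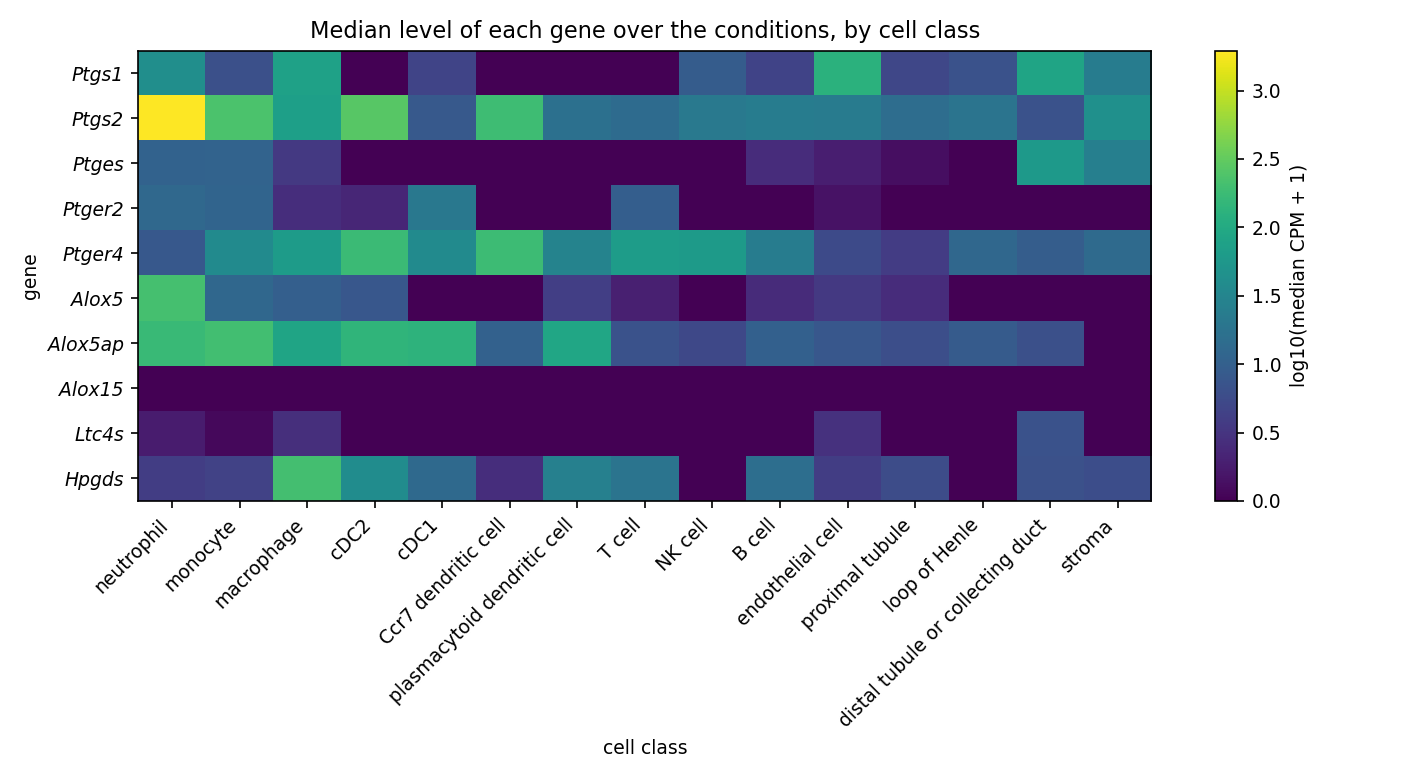
Median level of each of the 10 genes over the conditions in each of 15 cell classes, as log10(median CPM + 1) in colour. Ptgs2 and Alox5 are brightest in neutrophil-like cells (medians of 1953 and 207 CPM) and Hpgds in macrophage-like cells (201 CPM).

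The genes whose pattern was most like that of *Ptgs2*, by Pearson correlation of log2(CPM + 10) over 85 sums of a class in 1 condition and among 6900 genes, were *Il1b* (0.90), *Ehd1* (0.896), *Nfkbia* (0.89), *Zswim4* (0.888) and *Mcemp1* (0.887). *Il1b* encodes the cytokine interleukin 1 beta and *Nfkbia* an inhibitor of NF-kB. For *Alox5* they were *Acod1* (0.843) and *Cxcr2* (0.842), the latter a chemokine receptor of neutrophils, for *Alox5ap* *Nfam1* (0.935) and *Mctp1* (0.903), and for *Hpgds* *Slco2b1* (0.795) and *C1qa* (0.794). For *Ptgs1* they were *Pald1* (0.786) and *Lhfpl2* (0.767), for *Ptges* the collecting duct genes *Aqp2* (0.822) and *Hsd11b2* (0.814), for *Ptger4* *Mrtfa* (0.877) and *Myo1g* (0.837), for *Ptger2* *Rab32* (0.749) and *Dock5* (0.707), and for *Ltc4s* *Plppr1* (0.531) and *Atp6ap1* (0.53). The sums share pools, libraries and depth, and some of these genes mark the classes, so the correlations describe these sums only.

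A list of 42 other genes of the pathway was counted in the same fits. Against macrophage-like cells, 11 of 26 tested were higher and 7 lower in neutrophil-like cells (24.8% and 35.7% of all genes), 8 of 23 higher and 7 lower in monocyte-like cells (13.6% and 28.9%), 6 of 19 higher and 7 lower in cDC2-like cells (17.5% and 19.2%), and 7 of 27 higher and 14 lower in endothelial cell-like cells (31.3% and 34%). For neutrophil-like against monocyte-like cells 4 of 11 were higher and 3 lower (30.3% and 31.3%). In the entospletinib tests no gene of the list passed in any of the 4 classes, of 18 tested in neutrophil-like, 12 in monocyte-like, 10 in cDC2-like and 17 in endothelial cell-like cells. The 8 with the highest level over all passing cells were *Tbxas1*, *Pla2g7*, *Pla2g4a*, *Abcc4*, *Abcc1*, *Hpgd*, *Cyp4f18* and *Ptges3*. *Tbxas1*, the thromboxane synthase gene, had medians of 528 CPM in macrophage-like and 119 CPM in neutrophil-like cells and was lower in the latter, at −1.59 ± 0.25 on the log2 scale (adjusted p = 2.1e-07 by edgeR). *Hpgd*, whose product inactivates prostaglandins, was lower in neutrophil-like than in macrophage-like cells, at −3.77 ± 0.33, while *Cyp4f18*, which encodes an enzyme that degrades leukotriene B4, was higher by 3.29 ± 0.27 and *Pla2g7* by 1.57 ± 0.29. *Abcc4*, a transporter that exports prostaglandin E2, was higher by 0.67 ± 0.29 in the same comparison, and *Pla2g4a*, *Abcc1* and *Ptges3* did not pass.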

How the data were processed

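Live cells from pooled kidneys were sorted by exclusion of a dead-cell dye and by scatter to enrich leukocytes. They were sequenced with a split-pool combinatorial barcoding kit. The authors deposited whole-number counts per gene and cell, aligned to mm10 with the kit maker's pipeline, with a cell table that names the condition and sublibrary. The annotation release is not given in the sources used here. No authors' cell types were used. Cells with over 300 genes, under 20000 counts, under 25% mitochondrial and under 1.5% ribosomal protein counts were kept, as in the study. A cell entered the class with the most of its markers detected (21 lists), with at least 3 markers and at least 2 times those of the next class. Doublets were not called, and cells with markers of 2 classes stayed unplaced. A class of 146 cells with 2 of its own markers among its leading genes stayed unnamed and is not reported. Counts were summed per class, condition and sublibrary. Sums were tested in edgeR 4.0.16 (R 4.3.3; TMM scaling, its default filter on low counts, quasi-likelihood test, Benjamini-Hochberg adjustment over all genes, threshold 0.05), which was tested on simulated data. DESeq2 1.42.0 was an alternative. Ratios added 0.5 counts, and conditions with fewer than 20 cells of a class were left out. The floor of a count of 0 is 3 counts. Sublibraries held 25798505 to 32821488 counts in passing cells. All members were described; for likeness, genes that averaged 20 CPM or more over sums with at least 100000 counts were used, with 5 genes named for Ptgs2 and 2 for each other member with enough counts, and of the pathway list, the 8 highest. Members and lists were chosen with earlier results of these data known.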

Additional observations from a re-analysis of the deposited data

Results flagged for a closer look

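Of 35 levels of *Ptgs2* in a class and condition, 3 had 1 of 8 sublibraries far from the other 7. They were monocyte-like cells with vehicle on day 7 (799.7 CPM, the others up to 351 CPM), cDC2-like cells with entospletinib on day 7 (820.6 CPM, the others up to 326 CPM) and endothelial cell-like cells with vehicle on day 14 (185 CPM, the others up to 58.3 CPM). Chance flags about 1 in 20 such groups of sublibraries.

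Barcodes outside the limits on genes, counts and mitochondrial and ribosomal counts entered no comparison. Their *Ptgs2* level was 14.2 CPM in control (exact Poisson 95% interval 13.01 to 15.44), and above that interval in all 6 other conditions. It was 81.5 CPM with vehicle on day 1, 209 CPM on day 7 and 133 CPM on day 14, and 67.4 CPM, 29.2 CPM and 44.4 CPM with entospletinib.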

How the results depend on the processing

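The tests were paired by pool (classes) or by day (entospletinib against vehicle). In the comparisons of cell classes, 213 of 221 member results kept their direction and call when 1 pool was left out and 212 of 221 under the other alternatives, counting members that were still tested. Leaving out 1 pool, the members called numbered 7 to 8 for neutrophil-like and 6 to 7 for monocyte-like against macrophage-like cells, 2 to 4 for neutrophil-like against monocyte-like cells, 5 for cDC2-like and 6 to 7 for endothelial cell-like cells, and all genes called 5635 to 7243, 3438 to 4553, 2037 to 3832, 3174 to 3823 and 7641 to 8396. Under the stricter gate 4 members and 2904 genes were called for monocyte-like against macrophage-like cells, and for neutrophil-like against monocyte-like cells 5341 genes were called with no filter on low counts and 5234 with cells placed by likelihood, an alternative chosen after seeing the data. Of members still tested, the 9 calls lost were those of *Ptger4* in monocyte-like against macrophage-like cells, which ranged from −0.767 to −0.321 with 1 pool left out, and *Alox5* in that comparison was called higher at 0.65 with likelihood placing. Called members too low to test were *Ptges* and *Ptger2* in that comparison under the stricter gate, and *Ptger4* in neutrophil-like against monocyte-like cells under the stricter gate and without vehicle day 1, vehicle day 7 or entospletinib day 1. *Ptgs1* in neutrophil-like against macrophage-like cells ranged from −0.302 to 0.0308 with 1 pool left out, the highest without the control pool, *Alox5* in monocyte-like against macrophage-like cells from −0.0855 (without vehicle day 1) to 0.448, and *Alox5* in cDC2-like against macrophage-like cells turned to 0.43 with likelihood placing. *Alox5ap* in neutrophil-like against monocyte-like cells turned to −0.0316 with DESeq2 and ranged from −0.0892 to 0.351 with 1 pool left out, below 0 without entospletinib or vehicle day 1.

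For entospletinib against vehicle in neutrophil-like cells, 1 member was called with no filter, none to 1 without 1 day, and the genes called numbered 20 with DESeq2, 0 with over 500 genes per cell and 12 to 41 without 1 day. In monocyte-like cells 7 genes were called with library size alone, 45 with no filter, 1 with likelihood placing and 0 to 5 without 1 day. In cDC2-like cells 4 genes were called with DESeq2, 3 with library size alone, 22 with no filter, 3 with the stricter gate, 42 with no ribosomal limit, 28 with likelihood placing and 0 to 1 without 1 day. In endothelial cell-like cells 1 member was called with library size alone or no filter and 0 to 1 without 1 day, and 48, 139, 1, 11 and 3 genes were called with library size alone, no filter, the stricter gate, no ribosomal limit and likelihood placing, and 3 to 229 without 1 day. *Ptger4* in cDC2-like cells, at 0.01, turned to −0.0101 with DESeq2, −0.0706 with no filter, −0.225 with no ribosomal limit and −0.0251 with likelihood placing, and ranged from −0.142 to 0.214 without 1 day. *Ptger4* in endothelial cell-like cells turned to −0.41 with likelihood placing and *Ptgs1* there ranged from −0.244 to 0.0332 without 1 day, the highest without day 1.

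Of 378 member ratios in macrophage-like cells under the other alternatives, 11 were rated as moved and 1 as reversed, and not all of them are given here. For *Ptgs2*, the ratio on day 1 was −0.59 without cells with a neutrophil marker, a setting chosen after seeing the data. Against control, *Ptgs2* was at 2.12 on day 7 and 1.90 on day 14 with the stricter gate. *Ptges* against control on day 1 turned to −0.41 without cells with a neutrophil marker. Beyond those settings, the cause of these shifts was not tested. In place of the median gene, TMM scaling gave shifts of −0.007, 0.36 and 0.21 between entospletinib and vehicle on days 1, 7 and 14 in macrophage-like cells. On days 1 and 14 this would put each relative ratio lower. The smaller ratios, as of *Alox5ap*, *Hpgds* and *Ptgs1* on day 14, thus depend on the scaling. Depth limits *Alox15*, *Ltc4s* and the pools with few neutrophil-like cells.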
